A study of Homo sapiens with 8 samples.

Results

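The genes described here are 38 DNA replication and S-phase genes: the proteins that license and fire replication origins, the fork enzymes, the enzymes that supply nucleotides, and a few S-phase regulators. They were taken by gene symbol from a table of 58870 genes, each symbol matched exactly 1 row, and the rule uses no measured value, although the genes were proposed with results of these data in view. All 38 passed the filter on low counts, with 286 to 9499 counts per library. The cells were Panc 10.05, an established human pancreatic ductal adenocarcinoma line, and the same line in both groups: 4 libraries labelled control and 4 labelled as carrying an ELAPOR1 transgene (overexpression). ELAPOR1 is a transmembrane protein of endosomes and lysosomes, and the series was presented as a study of its effect on tumour subtype and metabolism. How the transgene was delivered, which promoter drives it, whether the cells were 1 clone or a pool, what the controls carried and whether replicates were separate cultures are not given in the sources used here. P-values therefore measure only the spread between these libraries, which may be technical.

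Origins are prepared in G1, when the origin recognition complex (ORC), CDC6 and CDT1 load the MCM2 to MCM7 helicase onto DNA. This step is called licensing. At S-phase entry the kinase CDC7 and cyclin-dependent kinases fire the origins, CDC45 and the GINS proteins join the helicase, and polymerases copy both strands behind it. Transcription of many of these genes is controlled by E2F factors and rises as cells approach S phase, so that in proliferating tumour cells their messenger RNA is commonly read as a sign of cycling. In bulk RNA, more cells in S phase and more RNA per cell cannot be told apart.

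Libraries held 16558600 to 18128757 counts in control and 13765509 to 17258166 in ELAPOR1 (exact permutation p = 0.143, two-sided). ELAPOR1, listed in the table as KIAA1324, had 1, 1, 4 and 4 counts in the control libraries and 5910 to 7368 in the ELAPOR1 libraries. Epithelial and ductal keratins and adhesion genes summed to 11929 to 13196 CPM (a count relative to the TMM-scaled total of its library) in control and 11159 to 11510 CPM in ELAPOR1, all 6 of them present. Most of that sum was KRT8 and KRT18, which were lower in ELAPOR1 libraries (log2 fold change -0.16 and -0.36). KRT7, KRT19 and CDH1 were higher (0.31, 0.25 and 0.11), and EPCAM changed by -0.03 (edgeR BH-adjusted p = 0.491). Of markers of other cells, COL1A2, DCN, LUM, CD3E, CDH5, PRSS1, CPA1, CELA3A, INS and CHGA had no count in any library. The fibroblast list, at 2.95 to 4.32 CPM in control and 2.71 to 3.19 CPM in ELAPOR1, was almost wholly COL1A1 (3.35 CPM in control). The endothelial list, at 1.62 to 2.13 CPM in control and 0.576 to 0.998 CPM in ELAPOR1, was mostly VWF, which fell from 1.69 to 0.761 CPM (log2 fold change -1.14, edgeR BH-adjusted p = 0.00188). PTPRC was at 0.0152 CPM in control, and the leukocyte list, at 82.0 to 88.5 CPM in control and 73.3 to 79.2 CPM in ELAPOR1, consisted almost wholly of CD68, a lysosomal protein. The share of counts from the mitochondrial genome was 4.29 to 4.41% in control and 4.70 to 4.93% in ELAPOR1 libraries (two-sided exact permutation test, p = 0.0286, which is the minimum for groups of 4). The part of these values in the results below was not tested.

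Most replication genes were modestly higher in ELAPOR1 libraries. Of the 38, 28 rose and 1 fell, the clamp-loader subunit RFC4, at a Benjamini-Hochberg (BH) adjusted p-value under 0.05 in the edgeR fit, while 9 did not pass. Across all 13860 genes tested, 44.7% were called in either direction and 22.6% were called higher. The median log2 fold change was 0.20 for the 38 genes and 0.00 for all tested genes. In 27 of the 38 the groups did not overlap, against 39.2% of all tested genes. Together the 38 genes took 0.411 to 0.416% of the counts of each control library and 0.479 to 0.490% of each ELAPOR1 library, and the groups did not overlap. The largest rises were those of the checkpoint adaptor CLSPN, by 1.60-fold, and the chromatin regulator UHRF1, by 1.53-fold. These were the 2 genes of the 38 whose estimate reached 1.5-fold, against 9.01% of all tested genes. Tested against a change of 1.5-fold (edgeR glmTreat), none of the 38 passed.

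**Figure D1:**
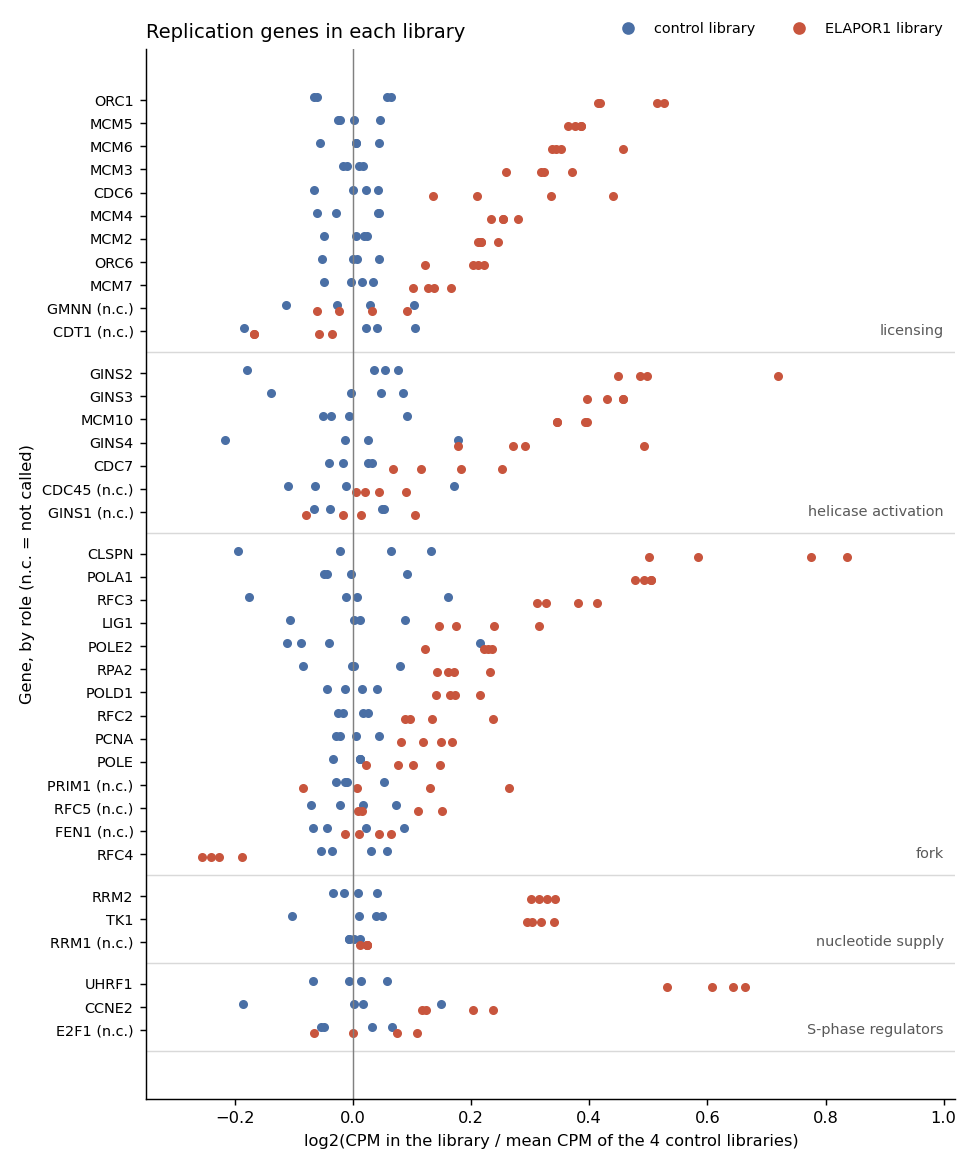
Each point is 1 library; the x axis is log2 of its CPM over the mean CPM of the 4 control libraries, and genes are grouped by role and sorted by fold change (n.c. marks genes that did not pass the test). Most ELAPOR1 libraries lie to the right of all control libraries, RFC4 lies to the left, and the 9 genes that did not pass overlap.

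Sequence upstream of these genes is shown first for UHRF1, GINS2 and POLA1, the genes with the largest called changes among those with an E2F-like match in the 250 bases before a RefSeq start. The windows are chr19:4909251-4909500 on the plus strand for UHRF1 (1 of its 3 annotated starts), chr16:85688955-85689204 on the minus strand for GINS2 and chrX:24693668-24693917 on the plus strand for POLA1, in GRCh38.p14. Each runs 5′ to 3′ on the strand of the gene and ends at the base before the start. Capitals mark every match, on either strand, to any of 4 E2F-like strings: TTCCCGC, its variant TTGGCGC, another form TTCGCGC and, last, the form TTGCCGC. CLSPN has no such match and is not shown.
UHRF1: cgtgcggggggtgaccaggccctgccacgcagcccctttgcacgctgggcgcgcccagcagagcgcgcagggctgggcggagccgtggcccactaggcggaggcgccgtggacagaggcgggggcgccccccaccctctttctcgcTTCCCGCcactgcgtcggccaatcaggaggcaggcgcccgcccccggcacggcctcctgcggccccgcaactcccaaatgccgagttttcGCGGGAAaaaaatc
GINS2: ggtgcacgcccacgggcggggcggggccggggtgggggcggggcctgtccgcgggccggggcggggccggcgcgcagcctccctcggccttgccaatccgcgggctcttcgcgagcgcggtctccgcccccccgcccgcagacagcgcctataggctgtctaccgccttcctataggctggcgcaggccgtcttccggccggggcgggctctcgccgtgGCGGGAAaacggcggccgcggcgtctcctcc
POLA1: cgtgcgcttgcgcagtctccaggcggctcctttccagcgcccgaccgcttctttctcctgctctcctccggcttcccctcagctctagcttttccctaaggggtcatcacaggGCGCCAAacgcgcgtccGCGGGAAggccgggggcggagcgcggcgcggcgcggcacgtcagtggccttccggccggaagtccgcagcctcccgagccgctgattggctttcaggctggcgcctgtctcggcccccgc

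In UHRF1 the matches began 104 and 14 bases before the start, in GINS2 the match began 31 bases before it, and in POLA1 the matches began 137 and 120 bases before it. RefSeq windows were found for 33 of the 38 genes, 45 windows in all. An E2F-like match was present in 23 of the 45 (51.1%), against 16.2% of 14420 windows of tested genes and 10.9% of all 35116 windows. In lists described below, the share was 28.2% of the windows of the further replication genes and 25.6% of those of the mitotic genes. The CCAAT box (CCAAT on either strand, the letters bound by the factor NF-Y) was present in 62.2% of the replication windows, 33.3% of those of tested genes and 32.0% of all. It was in 44.7% of the windows of the further replication genes and in 72.1% of those of the mitotic genes. TTTGAA, the letters of the cell cycle homology region (CHR) found before many mitotic genes, was in 1 of the 45 windows (2.22%), against 8.83% and 13.3%. In a comparison list of 38 mitotic genes, it was in 22 of 43 windows (51.2%). An E2F-like match stood in 17 of 32 windows of the genes that rose (53.1%) and in 6 of 13 windows of the others (46.2%). Counted by gene, the shares were nearly equal, 14 of 23 (60.9%) and 6 of 10 (60%), and no difference was tested. Matches of the 4 E2F-like strings can overlap each other, and a match describes letters only.

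Licensing factors rose in 9 of 11 cases, beside 22.6% of all tested genes called higher. ORC1, an ATP-binding subunit of the origin recognition complex (ENSG00000085840.13, chr1:52372829-52404459 in GRCh38, minus strand), stood at 40.7, 40.5, 37.3 and 37.2 CPM in control replicates 1 to 4 and at 56.1, 55.6, 52.0 and 51.9 CPM in ELAPOR1 replicates 1 to 4. Every ELAPOR1 library was above every control library, and the log2 fold change was 0.47 (SE 0.0524, edgeR BH-adjusted p = 4.3e-09). ORC6, the smallest subunit of that complex, rose less, by 0.19 (SE 0.0450, edgeR BH-adjusted p = 7.0e-04), with means of 57.4 ± 1.55 CPM in control and 65.5 ± 2.07 CPM in ELAPOR1 libraries (SD, n = 4). CDC6, the loader that joins ORC at the origin, rose by 0.28 (SE 0.0545, edgeR BH-adjusted p = 6.1e-05), with control libraries at 47.5 to 51.2 CPM and ELAPOR1 libraries more widely spread at 54.6 to 67.5 CPM.

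All 6 subunits of the MCM2 to MCM7 helicase rose, and none overlapped between groups. Of all tested genes, 22.6% were called higher and 39.2% did not overlap. MCM5 (ENSG00000100297.16, chr22:35400063-35425430, plus strand) was at 96.2, 96.4, 98.0 and 101 CPM in control and 128, 128, 127 and 126 CPM in ELAPOR1 libraries. Its libraries were tightly grouped, and the log2 fold change was 0.38 (SE 0.0359, edgeR BH-adjusted p = 1.0e-10). MCM6 (ENSG00000076003.5, chr2:135839626-135876426, minus strand) was at 147, 151, 147 and 141 CPM in control and 187, 201, 186 and 185 CPM in ELAPOR1 libraries, a log2 fold change of 0.38 (SE 0.0347, edgeR BH-adjusted p = 6.6e-11). The second ELAPOR1 library was the highest of the 8. MCM3 rose by 0.32 (SE 0.0308, adjusted p = 1.9e-10), MCM4 by 0.26 (SE 0.0292, adjusted p = 6.9e-09), MCM2 by 0.22 (SE 0.0302, adjusted p = 1.9e-07) and MCM7 by 0.13 (SE 0.0284, adjusted p = 2.5e-04, all edgeR). The 95% intervals of MCM5 (0.31 to 0.45) and MCM7 (0.07 to 0.19) did not overlap, although the helicase holds these subunits in equal number; the difference between genes was not tested. MCM2 overlaps TPRA1 on the opposite strand, and TPRA1 fell by 0.42 (edgeR BH-adjusted p = 5.4e-07). MCM7 overlaps AP4M1 on the opposite strand, which was not called (adjusted p = 0.582).

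CDT1, the licensing factor that brings MCM to ORC, and GMNN, which encodes geminin, the inhibitor of CDT1, did not pass the test. CDT1 was at 79.8, 93.3, 92.1 and 97.5 CPM in control and 80.7, 88.5, 87.1 and 80.7 CPM in ELAPOR1 libraries, so that the groups overlapped through the first control library. The log2 fold change was -0.11 (95% interval -0.21 to -0.00, edgeR BH-adjusted p = 0.0915). CDT1 was called lower without control replicate 1 (-0.17, edgeR BH-adjusted p = 6.8e-04) and with no filter beyond 1 count (-0.11, adjusted p = 0.0484). It was nearer to 0 with GC and length trends removed (-0.05, adjusted p = 0.334), with total count scaling (-0.08, adjusted p = 0.179) and without control replicate 4 (-0.07, adjusted p = 0.267). GMNN was at 60.3 to 70 CPM in control and 62.5 to 69.5 CPM in ELAPOR1 libraries (log2 fold change 0.01, 95% interval -0.09 to 0.11, edgeR BH-adjusted p = 0.868).

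Of the 7 genes that turn a loaded helicase into an active one, 5 rose, beside 22.6% of all tested genes. GINS2, which encodes a subunit of the GINS complex (ENSG00000131153.9, chr16:85676198-85690073, minus strand), was at 32.4, 38.1, 37.6 and 38.7 CPM in control and 60.4, 51.8, 51.4 and 50.1 CPM in ELAPOR1 libraries. The first library of each group stood apart from its other 3, in opposite directions. The log2 fold change was 0.54 (SE 0.0624, edgeR BH-adjusted p = 2.3e-08), and it stayed between 0.48 and 0.58 when each library was left out in turn. GINS3 (ENSG00000181938.13, chr16:58295080-58406144, plus strand) was at 19.1, 20.3, 19.8 and 17.4 CPM in control and 26.3, 26.3, 25.2 and 25.8 CPM in ELAPOR1 libraries. The groups lay well apart, with a log2 fold change of 0.43 (SE 0.0693, edgeR BH-adjusted p = 3.8e-06). GINS4 rose by 0.32 (SE 0.0818, adjusted p = 0.00179); the highest control library and the lowest ELAPOR1 library were both at 20.9 CPM. GINS1 did not pass, at 67.0 to 72.7 CPM in control and 66.3 to 75.4 CPM in ELAPOR1 libraries (log2 fold change 0.01, 95% interval -0.09 to 0.10, edgeR BH-adjusted p = 0.902).

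MCM10, which helps the helicase start to unwind (ENSG00000065328.16, chr10:13161554-13211104, plus strand), was at 34.9, 31.6, 31.9 and 32.6 CPM in control and 43.0, 43.1, 41.6 and 41.6 CPM in ELAPOR1 libraries. It rose by 0.37 on the log2 scale (SE 0.0553, edgeR BH-adjusted p = 1.3e-06), with no overlap. CDC7, the kinase that phosphorylates MCM proteins, rose by 0.15 (SE 0.0469, edgeR BH-adjusted p = 0.00714), with means of 58.2 ± 1.38 CPM in control and 64.9 ± 3.60 CPM in ELAPOR1 libraries (SD, n = 4). CDC45, the helicase cofactor, was at 37 to 45 CPM in control and 40.1 to 42.5 CPM in ELAPOR1 libraries and was not called (log2 fold change 0.04, 95% interval -0.08 to 0.16, edgeR BH-adjusted p = 0.597). The catalytic helicase core held called and uncalled partners side by side: all 6 MCM subunits and 3 of 4 GINS subunits rose, and CDC45 and GINS1 did not pass.

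Among 14 fork genes, 10 rose, 1 fell and 3 did not pass. Of all tested genes, 22.6% were called higher and 22.1% lower. CLSPN encodes claspin, which links the fork to the checkpoint kinase CHEK1 (ENSG00000092853.14, chr1:35720218-35769967, minus strand). It was at 23.7, 22.6, 21.3 and 18.9 CPM in control and 32.4, 37.0, 30.6 and 38.6 CPM in ELAPOR1 libraries. Its spread was the widest of the 38 genes within the ELAPOR1 group (coefficient of variation 10.9%), yet the lowest ELAPOR1 library exceeded the highest control library. The log2 fold change was 0.68 (SE 0.0764, edgeR BH-adjusted p = 1.4e-08), and 0.62 to 0.73 with each library left out.

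POLA1, the catalytic subunit of the polymerase that starts new strands (ENSG00000101868.10, chrX:24693919-24996986, plus strand), was at 51.3, 46.5, 46.7 and 48.0 CPM in control and 68.3, 67.7, 68.3 and 67.0 CPM in ELAPOR1 libraries. The ELAPOR1 libraries were nearly equal, and the log2 fold change was 0.49 (SE 0.0466, edgeR BH-adjusted p = 1.1e-10). Its partner PRIM1, the small primase subunit, did not pass, at 39.5 to 41.8 CPM in control and 38 to 48.4 CPM in ELAPOR1 libraries (0.08, 95% interval -0.04 to 0.21, edgeR BH-adjusted p = 0.291). PRIM1 overlaps NACA on the same strand, and NACA fell by 0.40 (edgeR BH-adjusted p = 9.7e-13). POLD1, the catalytic subunit of the lagging-strand polymerase, rose by 0.17 (SE 0.0420, edgeR BH-adjusted p = 9.7e-04). POLE and POLE2, of the leading-strand polymerase, were close to the threshold, at 0.09 (edgeR BH-adjusted p = 0.0379) and 0.20 (adjusted p = 0.0331). The POLE2 groups overlapped because control replicate 1 stood at 22.2 CPM beside 17.7 to 18.6 CPM in its other libraries. With GC and length trends removed the POLE estimate was 0.04 (adjusted p = 0.303), and it was also not called with upper-quartile scaling (adjusted p = 0.0586) or with no filter beyond 1 count (adjusted p = 0.0799). POLE was not called without control replicate 2 or 3 or ELAPOR1 replicate 1, 2 or 4 (adjusted p from 0.0612 to 0.158), and POLE2 was not called without control replicate 2, 3 or 4 or ELAPOR1 replicate 1, 2 or 3 (adjusted p from 0.0708 to 0.118).

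The sliding clamp and its loader were uneven. PCNA, the clamp, rose by 0.13 (SE 0.0313, edgeR BH-adjusted p = 9.4e-04), with control libraries at 214 to 225 CPM and ELAPOR1 libraries at 231 to 245 CPM. RFC3, a loader subunit (ENSG00000133119.13, chr13:33818049-33966558, plus strand), was at 30.7, 34.6, 31.1 and 27.4 CPM in control and 41.2, 40.3, 38.4 and 38.8 CPM in ELAPOR1 libraries. All ELAPOR1 libraries were higher, by 0.36 on the log2 scale (SE 0.0625, edgeR BH-adjusted p = 1.4e-05). RFC4 (ENSG00000163918.10, chr3:186789880-186807058, minus strand) was at 71.1, 72.0, 75.4 and 76.8 CPM in control and 62.5, 63.1, 64.8 and 61.8 CPM in ELAPOR1 libraries. It changed in the opposite direction to RFC3, by -0.23 (SE 0.0435, edgeR BH-adjusted p = 5.6e-05). RFC4 overlaps EIF4A2, a translation initiation factor on the opposite strand, which fell by 0.44 (edgeR BH-adjusted p = 4.6e-15); whether reads of the 2 genes were told apart by strand is not given in the sources used here. RFC2 rose by 0.14 (SE 0.0437, edgeR BH-adjusted p = 0.00864; without ELAPOR1 replicate 1, 0.11 and 0.0644), and RFC5 did not pass (0.07, 95% interval -0.02 to 0.16, edgeR BH-adjusted p = 0.218). RFC5 overlaps WSB2 on the opposite strand, and WSB2 fell by 0.36 (edgeR BH-adjusted p = 2.9e-11).

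LIG1, the ligase that seals lagging-strand fragments, rose by 0.22 (SE 0.0473, edgeR BH-adjusted p = 2.6e-04), with control libraries at 59.5 to 68.1 CPM and ELAPOR1 libraries at 70.9 to 79.7 CPM. RPA2, a subunit of the single-strand binding complex, rose by 0.18 (SE 0.0522, edgeR BH-adjusted p = 0.00632). FEN1, the nuclease that trims those fragments before ligation, was at 125 to 139 CPM in control and 129.7 to 137 CPM in ELAPOR1 libraries and did not pass (0.03, 95% interval -0.05 to 0.10, edgeR BH-adjusted p = 0.578). FEN1 overlaps the desaturase gene FADS2 on the same strand, and FADS2 fell by 1.20 (edgeR BH-adjusted p = 1.6e-11). TMEM258, on the opposite strand, fell by 0.24 (edgeR BH-adjusted p = 7.9e-04).

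Of 3 nucleotide supply genes, 2 rose and by nearly the same amount, beside 22.6% of all tested genes called higher. RRM2, the regulatory subunit of ribonucleotide reductase (ENSG00000171848.15, chr2:10120698-10131419, plus strand), was at 257, 263, 253 and 249.6 CPM in control and 321, 324, 318 and 315 CPM in ELAPOR1 libraries. It rose by 0.32 (SE 0.0295, edgeR BH-adjusted p = 5.3e-11). TK1, the thymidine salvage kinase (ENSG00000167900.12, chr17:78174075-78187233, minus strand), was at 140.4, 156, 152 and 155 CPM in control and 188, 191, 186 and 185 CPM in ELAPOR1 libraries, a rise of 0.31 (SE 0.0348, edgeR BH-adjusted p = 3.7e-09). In both genes the groups lay far apart. RRM1, the catalytic partner of RRM2, was at 319.9 to 324 CPM in control and 324 to 327 CPM in ELAPOR1 libraries, the tightest of all 38 genes within both groups (coefficients of variation 0.659% and 0.512%). Its log2 fold change was 0.02 (95% interval -0.04 to 0.08, edgeR BH-adjusted p = 0.593). One reductase subunit thus passed and the other did not, and the difference between them was not tested.

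UHRF1, which keeps DNA methylation by recruiting DNMT1 to replicated DNA (ENSG00000276043.5, chr19:4903080-4962154, plus strand), was at 150.5, 146, 144 and 138 CPM in control and 226, 209, 220.4 and 229 CPM in ELAPOR1 libraries. It had the smallest adjusted p of the 38 genes, with a log2 fold change of 0.62 (SE 0.0351, edgeR BH-adjusted p = 4.3e-16). CCNE2, a cyclin of S-phase entry (ENSG00000175305.17, chr8:94879770-94896678, minus strand), was at 41.1, 37.1, 37.5 and 32.6 CPM in control and 43.7, 42.7, 40.2 and 40.4 CPM in ELAPOR1 libraries. The groups overlapped through control replicate 1, and the rise of 0.17 (SE 0.0607, edgeR BH-adjusted p = 0.0216) was not called without ELAPOR1 replicate 1 (adjusted p = 0.0816), without ELAPOR1 replicate 2 (0.0569) or without control replicate 4 (log2 fold change 0.11, adjusted p = 0.116). E2F1, the activator that induces many replication genes, was at 58.9 to 64.0 CPM in control and 58.4 to 65.9 CPM in ELAPOR1 libraries and did not pass (0.03, 95% interval -0.07 to 0.13, edgeR BH-adjusted p = 0.636).

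Levels were compared between subunits of a complex as control CPM per kilobase of the main transcript. Within the helicase they ran from 154 ± 3.79 for MCM7 through 111 ± 4.06 for MCM4, 69.6 ± 0.669 for MCM3, 60.8 ± 1.34 for MCM2 and 39.2 ± 1.07 for MCM6 to 27.7 ± 0.578 for MCM5 (SD, n = 4 each). Neighbours in that order differed by more than their spread, and in ELAPOR1 libraries the order was the same, from 168 ± 3.21 to 36.0 ± 0.259. The least abundant pair, MCM5 and MCM6, had the largest fold changes and the most abundant, MCM7, the smallest. Between these ends the order did not hold. MCM2, lower in level than MCM3 and MCM4, rose less than either (0.22 against 0.32 and 0.26). In the clamp loader, RFC4 led in control at 53.3 ± 1.94 CPM per kb, followed by RFC5 at 40.1 ± 1.70 and RFC2 at 40.0 ± 0.702, which did not differ beyond their spread, and RFC3 at 12.9 ± 1.23. In ELAPOR1 libraries RFC4 (45.6 ± 0.915) and RFC2 (44.1 ± 2.11) did not differ beyond their spread, nor did RFC2 and RFC5 (42.2 ± 2.07), and RFC3 was at 16.5 ± 0.550. GINS1 was the highest GINS gene in control (21.6 ± 0.900), above GINS4 (15.9 ± 1.77), GINS2 (13.7 ± 1.09) and GINS3 (8.43 ± 0.552), while in ELAPOR1 libraries GINS1 (21.7 ± 1.18), GINS2 (20 ± 1.76) and GINS4 (19.8 ± 1.86) were within their spread. Divided by the length of all annotated exons, the MCM order was unchanged in control, but GINS4 fell to the lowest GINS gene (3.37 CPM per kb) and RFC2 (30.7) passed RFC4 (24.6).

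**Figure D2:**
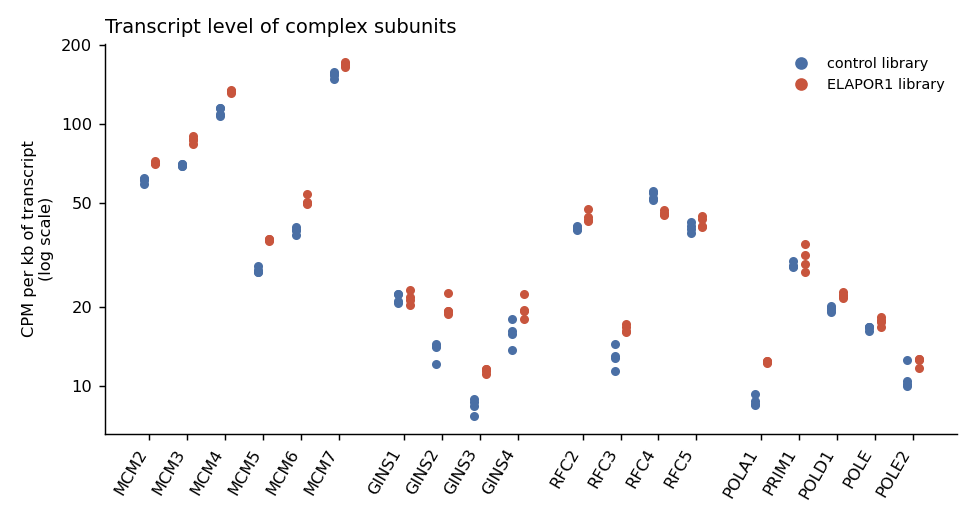
CPM per kilobase of the main transcript (log axis) for subunits of the MCM helicase, GINS, the clamp loader RFC and the polymerases; each point is 1 library. MCM7 is the highest of the MCM subunits and MCM5 the lowest in both groups, and RFC4 is the subunit whose ELAPOR1 libraries lie below its control libraries.

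The 38 genes lie on 17 chromosomes. Each gene was set beside the tested genes that start within 5 Mb of it. The neighbours' median log2 fold change ran from -0.22 (MCM4) to 0.16 (GINS3), and 36 of the 38 genes were above the median of their neighbours. All 28 genes that rose were above it, 24 of them by more than 0.1. Because those 28 were selected as higher, that count was largely set in advance and does not separate a gene from its surroundings. MCM4, at 0.26, lay among 11 neighbours of which 27.3% had a log2 fold change above 0. CDC7 (0.15) and ORC6 (0.19) were close to their surroundings, with neighbours' medians of 0.14 and 0.13. For GINS2 and CDT1, on the long arm of chromosome 16, the neighbours' median was 0.12 in each case, with GINS2 above it by 0.42 and CDT1 at -0.23 relative to it.

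**Figure D3:**
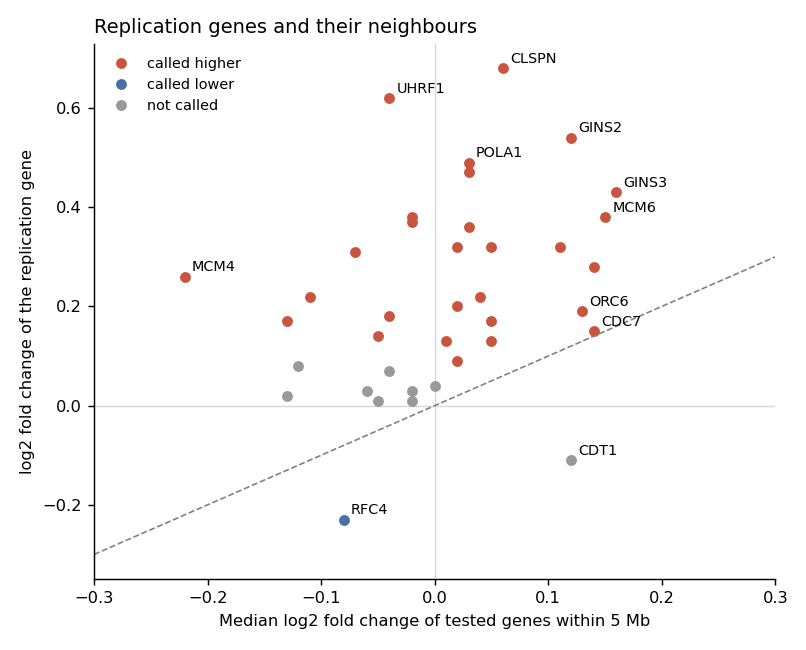
Each point is 1 of the 38 genes; the x axis is the median log2 fold change of tested genes within 5 Mb and the y axis that of the gene itself, with equality dashed. Of the 38 genes, 36 lie above the line, the 28 that rose among them, and RFC4 and CDT1 lie below it.

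A further 76 genes of replication, its nucleotide supply, its regulators and its checkpoint were counted as a list. All were tested, 40 rose and 6 fell, and the median log2 fold change was 0.13; over all tested genes 22.6% were higher and 22.1% lower. Among S-phase regulators 12 of 17 were higher and 4 lower. They included the activator E2F2, which rose by 0.78 (from 7.53 ± 0.785 to 12.9 CPM, edgeR BH-adjusted p = 8.9e-08), the ubiquitin ligase adaptor DTL, which marks CDT1 for degradation in S phase, by 0.57 (adjusted p = 8.0e-14), and E2F5, which changed by -0.49 (adjusted p = 4.0e-06). Of the genes of chromatin at the fork and of histone supply (SLBP and NPAT among the latter), 8 of 11 rose and none fell. Among the rises was that of DNMT1, the maintenance methyltransferase that works with UHRF1 (named after its value was seen), by 0.39 (adjusted p = 1.0e-12). In nucleotide supply 3 of 7 rose, with the nucleoside transporter SLC29A1 at 0.48 (adjusted p = 1.3e-11). The largest fall was that of POLD4, the smallest subunit of the lagging-strand polymerase, at -0.80 (adjusted p = 8.9e-12), and the helicase RECQL4 changed by -0.32 (adjusted p = 1.5e-06). POLD4 overlaps AP003419.1 on the same strand, which fell by 0.50 (adjusted p = 8.7e-05). E2F5 overlaps C8orf59 on the opposite strand, which fell by 0.25 (adjusted p = 5.2e-05, all edgeR). Tested genes within 5 Mb had a median log2 fold change of -0.16 around RECQL4, -0.16 around E2F5 and -0.11 around POLD4. Around the named rises E2F2, DTL, DNMT1 and SLC29A1 it was -0.03, 0.09, -0.06 and -0.09. Of the checkpoint genes 2 of 8 rose (25%), about the 22.6% of all tested genes. Of the further genes listed with licensing, which include MCM8 and MCM9, 3 of 7 rose, MCM8 among them, and none fell. No difference between roles was tested.

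Beside these, 24 of 38 mitotic genes were called, 19 higher and 5 lower, with a median of 0.08, against 44.7% of all tested genes called. PLK1 (0.51) and MKI67 (0.41) rose most, and CDC25C (-0.29) and CKS2 (-0.24) fell most (edgeR BH-adjusted p from 2.7e-12 to 6.8e-05). PLK1 lies on chromosome 16, and neighbours within 5 Mb were not examined for the mitotic genes. Of 14 cyclins, kinases and inhibitors of G1, 11 were called, 5 higher and 6 lower, with a median of 0.00, beside the same 44.7%. The counts of the lists were set side by side and no difference between lists was tested.

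**Figure D4:**
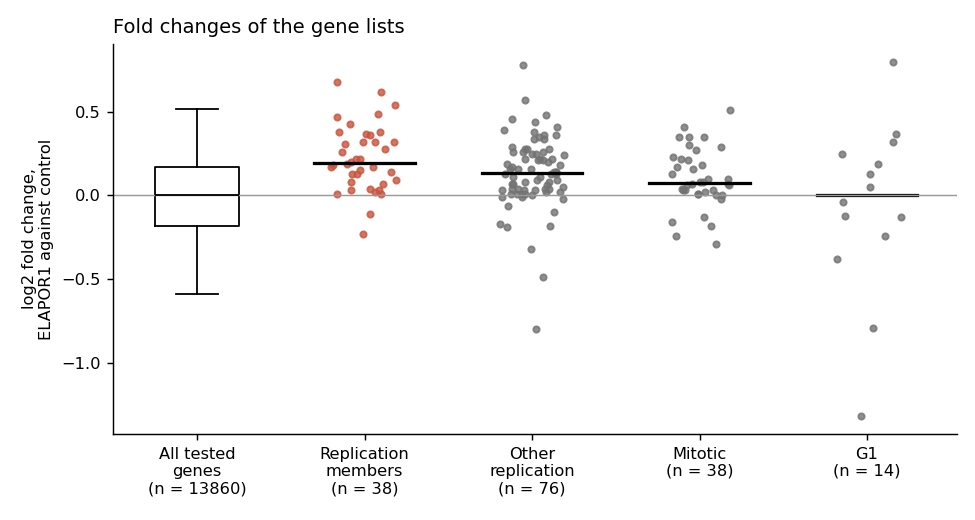
Log2 fold change of ELAPOR1 against control; points are genes, thick lines are medians, and the box shows the median, quartiles and 5th to 95th percentiles of all tested genes. The replication genes have a median of 0.20, the further replication genes 0.13, the mitotic genes 0.08 and the G1 genes 0.00.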

How the data were processed

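RNA sequencing was performed on 8 Panc 10.05 libraries. The authors deposited 1 table of estimated counts per gene (RSEM expected counts, per the file name and its values, of which 15.0% of nonzero ones were not whole); 2 of the 38 genes had such a value. Per the submitters' processing notes, cutadapt, STAR, RSEM and DESeq2 were used with the build hg38; versions, annotation release and use of strand are not given in the sources used here.

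Expected counts were rounded to whole numbers. The test was that of edgeR 4.0.16, run in R 4.3.3 (filterByExpr, TMM, robust quasi-likelihood F test, two-sided, no covariate, adjusted p by Benjamini-Hochberg over 13860 genes, threshold 0.05). The standard error is the log2 fold change divided by the square root of F, and 95% intervals are not adjusted. Positions, overlaps and transcript lengths (principal transcript) are from GENCODE release 29 (GRCh38), and promoters from RefSeq (GRCh38.p14). For single values per library, exact permutation tests (two-sided) were used. Fits were tested on simulated data. No replicate pair agreed within sampling noise. The mean chi-square per gene was 2.13 to 7.24 for control pairs, highest for replicates 1 and 4, and 1.9 to 2.22 for ELAPOR1 pairs. Alternatives were other scalings, DESeq2 1.42.0, limma-voom (limma 3.58.1), other filters and thresholds, a replicate block, leaving out each library, and removal of GC and length trends (99.8% of tested genes). Plots were drawn with matplotlib 3.10.9.

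The 38 genes and all lists were chosen with earlier results of these data known. Per-library values are given for the 3 called genes with the largest change in each role (every called gene where fewer), and for RFC4 and CDT1, which were added after their values were seen. Of the further lists, the named genes are the 3 largest called rises and falls above a mean of 5 CPM (2 each for mitotic genes) and every called G1 gene.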

Additional observations from a re-analysis of the deposited data

Results flagged for a closer look

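In 5 of 80 groups of 4 libraries (the CPM of the 38 genes, library totals and the mitochondrial share, in each group), 1 library lay apart from the other 3 by more than the 95% critical value of Dixon's test for 4 values; about 4 would be found by chance. MCM6 was at 201 CPM in ELAPOR1 replicate 2 and at 185 to 187 CPM in its other 3 libraries. GINS2 was at 32.4 CPM in control replicate 1, with the others at 37.6 to 38.7 CPM, and at 60.4 CPM in ELAPOR1 replicate 1, with the others at 50.1 to 51.8 CPM. POLE2 was at 20.8 CPM in ELAPOR1 replicate 4 and at 22.3 to 22.5 CPM in the others. RRM1 was at 324 CPM in ELAPOR1 replicate 3 and at 327 CPM in each of the others.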

How the results depend on the processing

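Tested against a 1.5-fold change, 0 of the 38 replication genes were called (0 higher, 0 lower), 1 of the further replication genes (POLD4), 0 mitotic genes, 2 G1 genes and 215 of all genes; that test asks for a larger change. Under the other settings the number of replication genes called was 26 to 29 of 38 with all libraries and 25 to 30 with each library left out (24 to 28 higher, 1 to 2 lower), and no called gene of the 38 changed direction. With each library left out, 5557 to 6316 of all genes, 41 to 45 further replication genes, 20 to 25 mitotic genes and 10 to 11 G1 genes were called. With no filter beyond 1 count 2 were lower, CDT1 being the second, as it was without control replicate 1. POLE and POLE2 were the genes most often lost, and under DESeq2 both were. Same-numbered libraries did not deviate together (Pearson r across genes from -0.121 to 0.0313), so the numbers are not taken as pairs. With the replicate number as a block 28 of the 38 genes and 5926 of all genes were called, POLE being lost. Of 265 fold changes of the 13 genes with per-library values by rule and of ELAPOR1 under the alternatives, 248 kept direction and call, 17 kept direction only and 0 reversed; ELAPOR1 could not be fitted with at least 10 counts in every library. Coefficients of variation of the 38 genes within a group ran up to 11.1% (GINS4 in control).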

Other observations

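The G1 genes moved in both directions. CDKN1A, which encodes the CDK inhibitor p21, stood at 16.2 ± 0.755 CPM in control and 28.2 ± 2.21 CPM in ELAPOR1 libraries (SD, n = 4), higher by 0.80 on the log2 scale (edgeR BH-adjusted p = 5.9e-11), and CDKN2C rose by 0.37 (adjusted p = 3.1e-07). The inhibitors CDKN1B (-0.38, adjusted p = 2.4e-09), CDKN1C (-0.79, adjusted p = 3.7e-04), CDKN2B (-0.24, adjusted p = 0.00105) and CDKN2A (-0.12, adjusted p = 0.0196) were lower. CCND1, the most abundant D-type cyclin in control (135 CPM per kb of transcript, against 24.5 for CCND3 and 1.56 for CCND2), rose by 0.25 (adjusted p = 1.6e-09), CCND3 by 0.19 (adjusted p = 0.00256) and the kinase CDK6 by 0.13 (adjusted p = 0.00237). CCND2 fell from 10.1 ± 0.432 to 3.99 ± 1.03 CPM (log2 fold change -1.32, adjusted p = 8.7e-10), and CDK2 was lower by a small amount (-0.13, adjusted p = 0.00189, all edgeR).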
